A study of Mus musculus with 6 samples.

Results

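The nonclassical MHC class I genes H2-Q4, H2-Q6, H2-Q7, H2-T22, H2-T23, H2-T24, H2-M3, Cd1d1 and Mr1 were compared between WT and Drp1 KO bone marrow–derived macrophages (BMDMs). The 9 genes were chosen by name, and each gene's level is the sum of the estimated counts of its transcripts (31 transcripts in all). They were 9 of 36137 genes with a transcript in the tables, and all 9 were among the 18506 genes tested. DRP1, encoded by Dnm1l, is the GTPase that divides mitochondria. Both groups carried 1 copy of LysM-Cre, which drives the recombinase in myeloid cells. In the Drp1 KO group both Dnm1l alleles were floxed (LysM-Cre+/– Drp1 fl/fl), and in the WT group both were wild type (LysM-Cre+/– Drp1+/+). The mice were 8 to 12 weeks old, and marrow was pooled from 2 mice for each genotype. The study's methods call the controls littermates, but the cross given there used homozygous floxed females, which pass a floxed allele to every pup. Per the labels, cells were grown with 10% L929-conditioned medium to day 7 and then held for 8 h without serum in 2.1% oxygen, so that no library came from unstressed cells. The study's methods state another share of L929 medium and a slightly different oxygen level. Poly(A) RNA was sequenced in 3 libraries per group, with 23389488 to 32231206 estimated counts each.

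MHC class I molecules hold an antigen at the cell surface for inspection by T and NK cells. The classical genes, such as H2-K1 and H2-D1, are highly polymorphic and present diverse peptides, whereas the nonclassical ones vary little and are more specialized. H2-T23 encodes Qa-1, whose complex with leader peptides of other class I molecules is the ligand of the inhibitory receptor CD94/NKG2A. H2-Q6 and H2-Q7 encode Qa-2, H2-M3 presents N-formylated peptides, and H2-T22 is a ligand of γδ T cell receptors. CD1D1 presents lipids to NKT cells, and MR1 presents vitamin B metabolites to MAIT cells. Most of these heavy chains pair with β2-microglobulin (B2m), and transcription of several is induced by interferons and by the coactivator NLRC5.

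The promoter windows of the genes are shown first because they differ in the interferon-related words that they carry. RefSeq (build GRCm38.p6) gave a window of 250 bases before and 50 bases after the start for 7 of the 9 genes; H2-T24 and Cd1d1 were not matched. The windows of the Qa-2 genes H2-Q6 and H2-Q7, of H2-T22, H2-T23, H2-M3 and Mr1, and of the classical gene H2-K1 for comparison, are printed 5′ to 3′ along the gene's strand. Capitals mark a match, on either strand, to the core of the interferon-stimulated response element (ISRE), which is GAAA, any 2 bases and GAAA, or to the word GAAGTGAAA, which was added after the windows had been read.
H2-Q6 (chr17:35424600-35424899, plus strand): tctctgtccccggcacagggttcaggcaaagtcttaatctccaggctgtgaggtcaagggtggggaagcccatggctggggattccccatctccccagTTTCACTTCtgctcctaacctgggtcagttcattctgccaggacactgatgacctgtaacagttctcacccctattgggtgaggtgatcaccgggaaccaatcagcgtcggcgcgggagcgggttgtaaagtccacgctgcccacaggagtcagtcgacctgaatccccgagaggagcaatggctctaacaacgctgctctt
H2-Q7 (chr17:35438905-35439204, plus strand): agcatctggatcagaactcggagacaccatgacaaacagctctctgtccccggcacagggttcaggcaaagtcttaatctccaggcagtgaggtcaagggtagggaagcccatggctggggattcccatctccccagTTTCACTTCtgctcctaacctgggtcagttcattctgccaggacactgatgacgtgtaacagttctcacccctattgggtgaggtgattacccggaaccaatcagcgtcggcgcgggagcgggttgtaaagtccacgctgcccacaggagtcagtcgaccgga
H2-T22 (chr17:36042693-36042992, minus strand): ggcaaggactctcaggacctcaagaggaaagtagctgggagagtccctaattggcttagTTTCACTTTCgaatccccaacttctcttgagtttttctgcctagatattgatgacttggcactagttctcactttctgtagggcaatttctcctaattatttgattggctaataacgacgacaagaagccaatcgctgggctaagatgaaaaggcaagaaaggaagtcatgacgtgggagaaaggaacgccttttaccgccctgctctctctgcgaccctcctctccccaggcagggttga
H2-T23 (chr17:36032652-36032951, minus strand): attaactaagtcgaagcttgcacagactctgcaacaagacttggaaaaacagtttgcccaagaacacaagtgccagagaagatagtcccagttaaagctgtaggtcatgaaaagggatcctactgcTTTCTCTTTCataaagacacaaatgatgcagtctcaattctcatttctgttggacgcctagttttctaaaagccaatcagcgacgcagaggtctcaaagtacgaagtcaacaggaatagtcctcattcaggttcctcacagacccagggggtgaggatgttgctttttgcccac
H2-M3 (chr17:37269984-37270283, plus strand): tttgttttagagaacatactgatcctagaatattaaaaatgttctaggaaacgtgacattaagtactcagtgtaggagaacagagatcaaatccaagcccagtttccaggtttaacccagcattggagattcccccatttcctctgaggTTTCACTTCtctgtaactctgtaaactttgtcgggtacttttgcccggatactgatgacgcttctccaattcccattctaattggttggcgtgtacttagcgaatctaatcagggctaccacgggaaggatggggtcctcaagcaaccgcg
Mr1 (chr1:155146765-155147064, minus strand): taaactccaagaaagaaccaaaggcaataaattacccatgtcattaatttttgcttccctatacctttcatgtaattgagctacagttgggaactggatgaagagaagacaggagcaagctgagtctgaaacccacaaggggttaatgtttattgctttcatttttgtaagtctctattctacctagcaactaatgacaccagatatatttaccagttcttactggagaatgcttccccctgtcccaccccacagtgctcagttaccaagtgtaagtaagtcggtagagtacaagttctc
H2-K1 (chr17:34000298-34000597, minus strand): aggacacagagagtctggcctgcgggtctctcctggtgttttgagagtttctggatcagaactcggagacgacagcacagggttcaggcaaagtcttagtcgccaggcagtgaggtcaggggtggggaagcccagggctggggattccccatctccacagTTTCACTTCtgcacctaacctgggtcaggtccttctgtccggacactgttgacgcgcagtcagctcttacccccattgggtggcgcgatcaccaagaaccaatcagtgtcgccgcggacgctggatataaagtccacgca

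The ISRE core was found in the windows of H2-T22, starting at −191 from the gene's start, of H2-T23, at −124, and of B2m, at −139. It was present in 3.49% of all 27025 promoter windows. The word GAAGTGAAA was found in H2-Q4 (−153), H2-Q6 (−152), H2-Q7 (−113) and H2-M3 (−101), and in the classical genes H2-K1 (−90) and H2-D1 (−150). It was present in 0.522% of all windows. Because this word was picked after these windows had been read, that share is no test of its presence in them. The κB word (GGG, any 2 bases, TTCCC) was present in H2-Q4, H2-Q6 and H2-Q7 as in H2-K1 and H2-D1, and in 1.66% of all windows. The interferon-γ activation site word TTCNNNGAA was found in H2-M3 alone among the 7 genes, and in 8.47% of all windows. The core of the cyclic AMP response element, TGACG, was present in H2-Q4, H2-Q7, H2-T22 and H2-M3 and in 21% of all windows, and CCAAT in 6 of the 7 genes and in 37.9% of all windows. The Mr1 window held none of these 6 words. Each match describes the letters of the window and no binding was measured. The windows of H2-Q6 and H2-Q7 were 74.7% identical after global alignment, and that of H2-Q6 was 79.9% identical to that of H2-D1.

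Expression was 2-fold higher in Drp1 KO BMDMs for H2-T24 and H2-T22, which both rose past an adjusted p of 0.05, and 6 further genes of the 9 had higher point estimates that passed when libraries were paired by number but not in the unpaired fit. Cd1d1 was the exception, with nearly equal levels. In pools of cells, a change in the number of expressing cells and a change in RNA per cell cannot be told apart. Levels are given as CPM, the counts relative to the library's TMM-scaled total, and differences as log2 fold change of Drp1 KO relative to WT with its standard error (SE). The test was edgeR's quasi-likelihood test, with Benjamini-Hochberg adjustment over all genes tested. By this test 2 of 9 genes (22.2%) were higher at an adjusted p under 0.05 and none lower. Of all genes tested, 2.29% were higher and 1.06% lower (3.36% in either direction). The study's own rule was a log2 fold change above 0.32 in size with an unadjusted p under 0.05, in DESeq2. With these cutoffs applied to the edgeR values, 8 of 9 were higher and none lower. Of all genes, 7.19% were higher and 5.48% lower by that rule (12.7% in either direction). With DESeq2 values 8 of 9 were also higher, against 6.36% of all genes. In 6 of 9 genes every Drp1 KO library lay above every WT library, against 11.7% of all genes. The median log2 fold change was 0.64 over the 9 genes and 0.0046 over all genes. When the same-numbered libraries were paired in the fit, 8 of 9 genes were higher at an adjusted p under 0.05, against 6.73% of all genes. The labels do not say that same-numbered libraries belong together. This pairing was adopted from correlations in these same data, which were clearest for the libraries numbered 1.

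**Figure D1:**
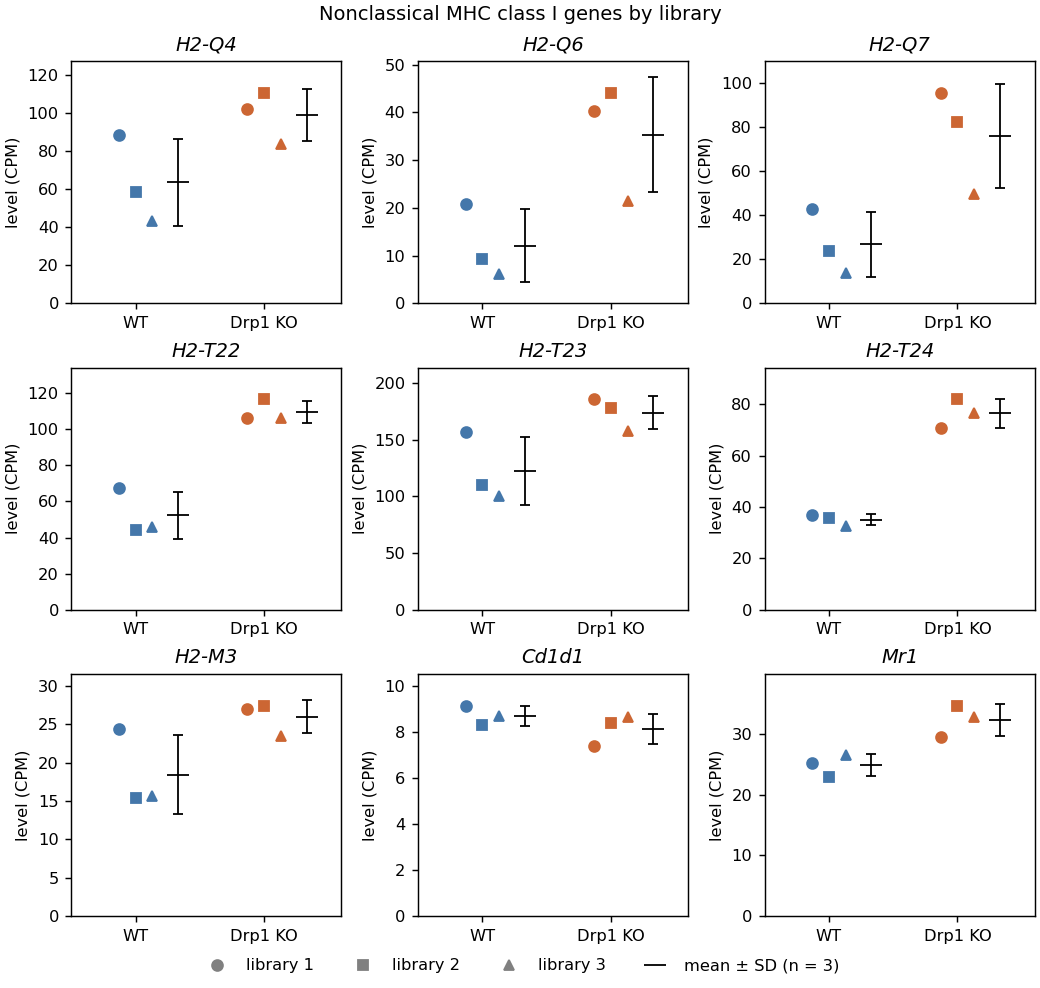
Level of each of the 9 genes (CPM, y axis from 0) in the 3 WT and 3 Drp1 KO libraries, with the marker shape giving the library number and the bars the mean ± SD (n = 3). H2-T24 and H2-T22 show the widest gap relative to the spread, WT library 1 is the highest WT library in 8 of 9 genes, and Cd1d1 overlaps. The share of all genes highest in WT library 1 was not counted.

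H2-T24 lies on GRCm39 chr17:36314363-36331485, minus strand. Its level was 36.7, 35.6 and 32.5 CPM in WT libraries 1 to 3 and 70.7, 82.0 and 76.6 CPM in Drp1 KO libraries 1 to 3. The WT libraries were tightly grouped, and the lowest Drp1 KO library lay far above the highest WT library. The mean was 34.9 ± 2.18 CPM in the WT libraries and 76.4 ± 5.64 CPM in Drp1 KO (SD, n = 3). H2-T24 rose by a log2 fold change of 1.13 (SE 0.101, edgeR adjusted p = 0.000389), which was 2.19-fold. It had the smallest p of the 9 genes, and it passed under each of the 15 other settings, with log2 fold changes of 1.07 to 1.17.

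H2-T22, the γδ T cell ligand, lies on chr17:36348020-36353650, minus strand. It measured 67.3, 44.0 and 45.7 CPM in the WT libraries and 106, 117 and 106 CPM in the Drp1 KO libraries. All Drp1 KO libraries were above all WT libraries, and WT library 1 stood above the other two. The means were 52.3 ± 13.01 and 110 ± 6.13 CPM (SD, n = 3), a log2 fold change of 1.07 (SE 0.154, edgeR adjusted p = 0.00513). H2-T22 also passed under each of the 15 other settings, where the largest adjusted p was 0.047, without WT library 2.

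H2-T23 (Qa-1), on chr17:36340229-36345571, minus strand, had levels of 157, 110 and 100.8 CPM in WT, against 186, 178 and 158 CPM in Drp1 KO. The groups touched without overlapping, as WT library 1 reached almost the level of Drp1 KO library 3. Means were 123 ± 30.1 and 174 ± 14.7 CPM (SD, n = 3). The log2 fold change of 0.50 (SE 0.156) did not pass after adjustment (edgeR adjusted p = 0.127). It did in the paired fit, at 0.53 (SE 0.0930, adjusted p = 0.0048), and without WT library 1, at 0.72 (adjusted p = 0.00678). Without WT library 2 the value was 0.41 (adjusted p = 0.432) and without WT library 3 it was 0.36 (adjusted p = 0.418).

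The Qa-2 genes showed the largest fold changes of the 9 and also the largest SE. H2-Q6, on chr17:35643777-35655332, plus strand, measured 20.7, 9.30 and 6.13 CPM in the WT libraries and 40.4, 44.1 and 21.5 CPM in Drp1 KO. H2-Q7, on chr17:35658131-35662749, plus strand, measured 42.8, 23.8 and 13.7 CPM in WT, against 95.6, 82.4 and 49.5 CPM in Drp1 KO. In both genes the groups did not overlap, WT library 1 was the highest WT library and Drp1 KO library 3 the lowest Drp1 KO library. For H2-Q6, WT library 1 and Drp1 KO library 3 were almost equal. The log2 fold change was 1.56 (SE 0.397, edgeR adjusted p = 0.0669) for H2-Q6 and 1.51 (SE 0.357, edgeR adjusted p = 0.0508) for H2-Q7, so that neither passed. In the paired fit the values were 1.65 (SE 0.192, adjusted p = 0.000395) and 1.59 (SE 0.125, adjusted p = 3.63e-05). The fold between libraries of the same number ranged from 1.95 to 4.75 for H2-Q6 and from 2.24 to 3.61 for H2-Q7. Without WT library 1 the adjusted p was 0.00495 for H2-Q6 and 0.00625 for H2-Q7, and without Drp1 KO library 3 it was 0.0457 and 0.0369. It was 0.278 and 0.227 without WT library 2, and 0.195 and 0.125 without WT library 3. Across these fits that left out a WT library the log2 fold change was 1.22 to 2.19 for H2-Q6 and 1.17 to 2.01 for H2-Q7, highest without WT library 1.

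H2-Q4, the third gene of the Q region, lies on chr17:35598586-35604274, plus strand. Its levels were 88.7, 58.8 and 43.3 CPM in the WT libraries and 102, 111 and 84.1 CPM in Drp1 KO. WT library 1 lay above Drp1 KO library 3, so the groups overlapped. The means were 63.6 ± 23.05 and 99.0 ± 13.7 CPM (SD, n = 3), with a log2 fold change of 0.64 (SE 0.219, edgeR adjusted p = 0.166). The paired fit gave 0.69 (SE 0.129, adjusted p = 0.00629), and the fit without WT library 1 gave 0.95 (adjusted p = 0.0113). Without WT library 3 the value was 0.41 (adjusted p = 0.429), and without WT library 2 it was 0.57 (adjusted p = 0.454).

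H2-M3, which presents N-formyl peptides, lies on chr17:37581106-37585384, plus strand. It measured 24.4, 15.4 and 15.7 CPM in WT, against 27.1, 27.5 and 23.5 CPM in Drp1 KO. WT library 1 again reached the Drp1 KO range, and the groups overlapped. The log2 fold change was 0.50 (SE 0.176, edgeR adjusted p = 0.182), 0.52 in the paired fit (SE 0.122, adjusted p = 0.0191) and 0.74 without WT library 1 (adjusted p = 0.012). Without WT library 2 it was 0.36 (adjusted p = 0.529), and without WT library 3 it was 0.37 (adjusted p = 0.513).

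The antigen-presenting genes outside the H2 region had estimates of opposite sign in the unpaired fit, and no test compared them with each other. Mr1, on chr1:155003021-155022579, minus strand, measured 25.1, 22.98 and 26.6 CPM in the WT libraries and 29.5, 34.7 and 32.8 CPM in Drp1 KO. The groups did not overlap, but the difference was the smallest of the 8 genes with a higher mean, at a log2 fold change of 0.38 (SE 0.110, edgeR adjusted p = 0.105). In the paired fit it was also 0.38 (SE 0.0946, adjusted p = 0.0264), and when protein-coding transcripts alone were counted it was 0.24 (adjusted p = 0.575). Cd1d1, on chr3:86903132-86906770, minus strand, measured 9.14, 8.28 and 8.69 CPM in WT, against 7.40, 8.37 and 8.65 CPM in Drp1 KO. The groups overlapped, and Drp1 KO library 1 was the lowest library. The log2 fold change was −0.09 (SE 0.137, edgeR adjusted p = 0.826), and it ranged from −0.23 to 0.05 over the 15 other settings. Cd1d1 rested on 688 counts in WT and 719 in Drp1 KO, the fewest of the 9 genes.

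**Figure D2:**
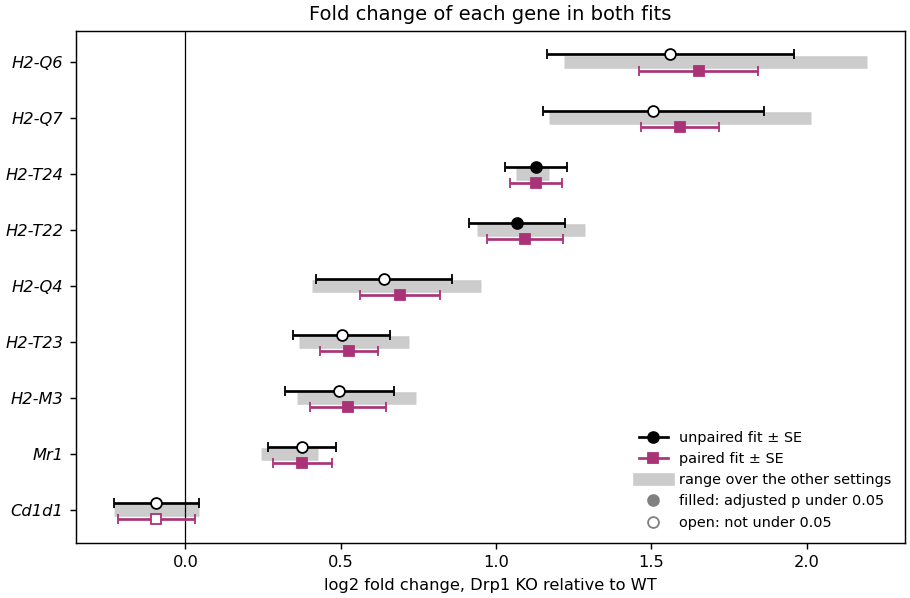
Log2 fold change of each gene (x axis, Drp1 KO relative to WT) in the unpaired fit (circles) and in the fit that pairs libraries by number (squares), with bars for the SE and grey bands for the range over the 15 other settings, the paired fit included. Filled symbols mark an adjusted p under 0.05: 2 genes in the unpaired fit and 8 in the paired one.

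The number of genes passing depended on single libraries. Without WT library 1, 7 of 9 were higher at an adjusted p under 0.05 (all but Cd1d1 and Mr1), against 2.89% of all genes, and without Drp1 KO library 3, 4 of 9 were, against 1.48%. By the study's rule, 8 of 9 were higher with all libraries, but 4 without WT library 2, against 5.63% of all genes, and 5 without WT library 3, against 6.04%. In 5 of 9 genes the WT levels were ordered library 1, library 2, library 3 from high to low. The share of all genes with this order was not counted. The summed level of 10 interferon-stimulated reference genes had the same order in WT, at 504, 406 and 287 CPM, and was 1346, 1825 and 1697 CPM in Drp1 KO. The single genes did not all have it: Isg15, Ifit1, Ifit3, Rsad2 and Usp18 were highest in WT library 2. From WT library 1 to 2, Irf7 went from 74.6 to 21.2 CPM and Bst2 from 129 to 87.9 CPM. The classical genes H2-K1 and H2-D1 also fell from WT library 1 to 3. The summed level of the 9 genes was 472, 328 and 293 CPM in the WT libraries and 665, 685 and 560 CPM in Drp1 KO. The orders differed in Drp1 KO, where the interferon-stimulated sum was lowest in library 1. There 6 of the 9 genes, and their sum, were lowest in library 3. The part of the interferon-stimulated genes in the differences was not tested.

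Several of the genes share stretches of sequence with other class I genes, so reads can be divided between them. For each gene, the transcript sequences were cut into words of 31 bases, the length used by default in kallisto, and the words present in no other gene were counted. H2-Q6 and H2-T22 had the lowest share of words of their own, both at 48.7%, and H2-T22 shared 46.6% of its words with H2-T10. H2-Q7 held 59.95% of its own, H2-Q4 61.6%, H2-T23 74.7% and Cd1d1 75.3%, with 24.2% of the Cd1d1 words also in Cd1d2. H2-T24, H2-M3 and Mr1 were nearly free of shared words, with 93.5%, 95.4% and 99.8% of their own. H2-T24, the gene with the smallest p, thus had few words in common with other genes. These shares pool all transcripts of a gene, and some transcripts that carried most of the counts had fewer words of their own. The share was 51.0% for H2-T23-201, 37.2% for H2-T22-202 and 38.7% for H2-T22-203. It was 56.4% for H2-Q4-201 and 66.9% for Cd1d1-201, whereas H2-Q7-203 had 63.95%, above its gene's value. Of the 31 transcript sequences used here, 20 had the length recorded in the deposited tables, so these shares are approximate.

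**Figure D3:**
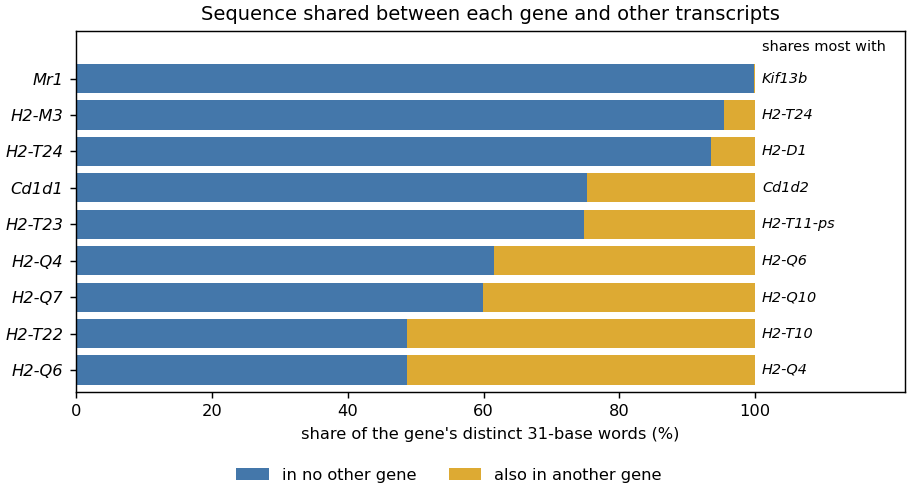
Share of each gene's distinct 31-base words (x axis, percent) that occurred in no other gene (blue) or also in another gene (yellow), with the gene sharing the most words named on the right. Shares of own words run from 48.7% in H2-Q6 and H2-T22 to 99.8% in Mr1.

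Counts of genes that share words were also summed. H2-Q6 and H2-Q7, which share 18.8% of the H2-Q6 words and 9.22% of the H2-Q7 words, together measured 63.5, 33.1 and 19.9 CPM in WT, against 136, 127 and 71.1 CPM in Drp1 KO. The log2 fold change was 1.52 (SE 0.368, edgeR adjusted p = 0.0544), and 1.62 in the paired fit (SE 0.140, adjusted p = 6.93e-05). H2-Q6 made up 28.1 to 34.9% of this sum in the 6 libraries, with no separation of the groups. This sum leaves out H2-Q4, which held more of the H2-Q6 words than H2-Q7 did, and H2-Q10 and H2-Q5, which held 22.7% and 15.7% of the H2-Q7 words. H2-T22 summed with H2-T10 and H2-T9, the last of which held 2.97% of the H2-T22 words, measured 72.1, 47.0 and 48.1 CPM in the WT libraries and 114, 124 and 112 CPM in Drp1 KO. This sum rose by 1.07 on the log2 scale (SE 0.156, edgeR adjusted p = 0.00554), and H2-T22 supplied 93.0 to 95.1% of it. H2-T10 itself went from 3.31 ± 1.19 to 6.71 ± 1.29 CPM (SD, n = 3), a log2 fold change of 1.02 (SE 0.260, edgeR adjusted p = 0.0663; 0.00198 in the paired fit).

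The transcripts that carried the counts also differed between genes. Shares of a gene's counts were compared for 18 transcripts of the 9 genes with a mean of at least 50 counts. In 4 the share was higher in each Drp1 KO library than in each WT library, against 11.8% of all transcripts compared, and in 3 it was lower, against 11.7%. Shares within a gene add up to the whole, so these calls are not independent. The lower ones, H2-Q4-202, H2-T22-202 and H2-T23-201, mirror the higher H2-Q4-201, H2-T22-203 and H2-T23-204, and Mr1-204 was the remaining higher one. For H2-T22, the protein-coding transcript H2-T22-203 took 19.0, 16.5 and 17.9% of the counts in WT and 24.04, 24.8 and 30.6% in Drp1 KO. The main transcript H2-T22-202 went the other way, from a mean of 76.1 ± 1.74% to 65.6 ± 2.30% (SD, n = 3), with both coding transcripts higher in absolute TPM. For H2-T23, the retained-intron transcript H2-T23-204 took 1.57, 1.72 and 1.67% in WT and 3.62, 4.07 and 4.79% in Drp1 KO, while the coding transcript H2-T23-201 kept 92.4% or more in every library. H2-Q4 showed the smallest of the shifts without overlap, with its retained-intron transcript H2-Q4-202 at 9.16 ± 0.747% in WT and 7.71 ± 0.323% in Drp1 KO (SD, n = 3). These shares are estimates that kallisto divides among overlapping transcripts, and no test was run on them.

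For H2-Q7 and Mr1 many of the counts lay outside coding transcripts. The retained-intron transcript H2-Q7-205 took 42.0, 59.0 and 59.6% of the H2-Q7 counts in WT and 32.3, 48.1 and 46.5% in Drp1 KO, and the groups overlapped. Coding transcripts thus supplied 46.3 ± 10.17% of H2-Q7 counts in WT and 57.5 ± 8.89% in Drp1 KO (SD, n = 3). Counts do not allow for length, and H2-Q7-205 has 4209 bases against 1134 for the coding H2-Q7-203. In TPM, which does, H2-Q7-205 was 5.44, 4.31 and 2.70 in WT, of gene totals of 34.6, 15.7 and 9.87. In Drp1 KO it was 8.82, 11.7 and 7.05, of totals of 78.5, 59.5 and 38.0. Coding transcripts therefore held most of the H2-Q7 TPM in every library. For Mr1, the coding transcript Mr1-201 supplied 33.8 ± 7.94% in WT and 31.2 ± 3.66% in Drp1 KO. Mr1-204, annotated as a target of nonsense-mediated decay, supplied 48.0, 47.3 and 40.5% in WT and 48.5, 50.6 and 48.6% in Drp1 KO. The Mr1-204 shares just failed to overlap. H2-T24, H2-Q6 and H2-M3 have only coding transcripts among those matched, so their counts could fall nowhere else.

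**Figure D4:**
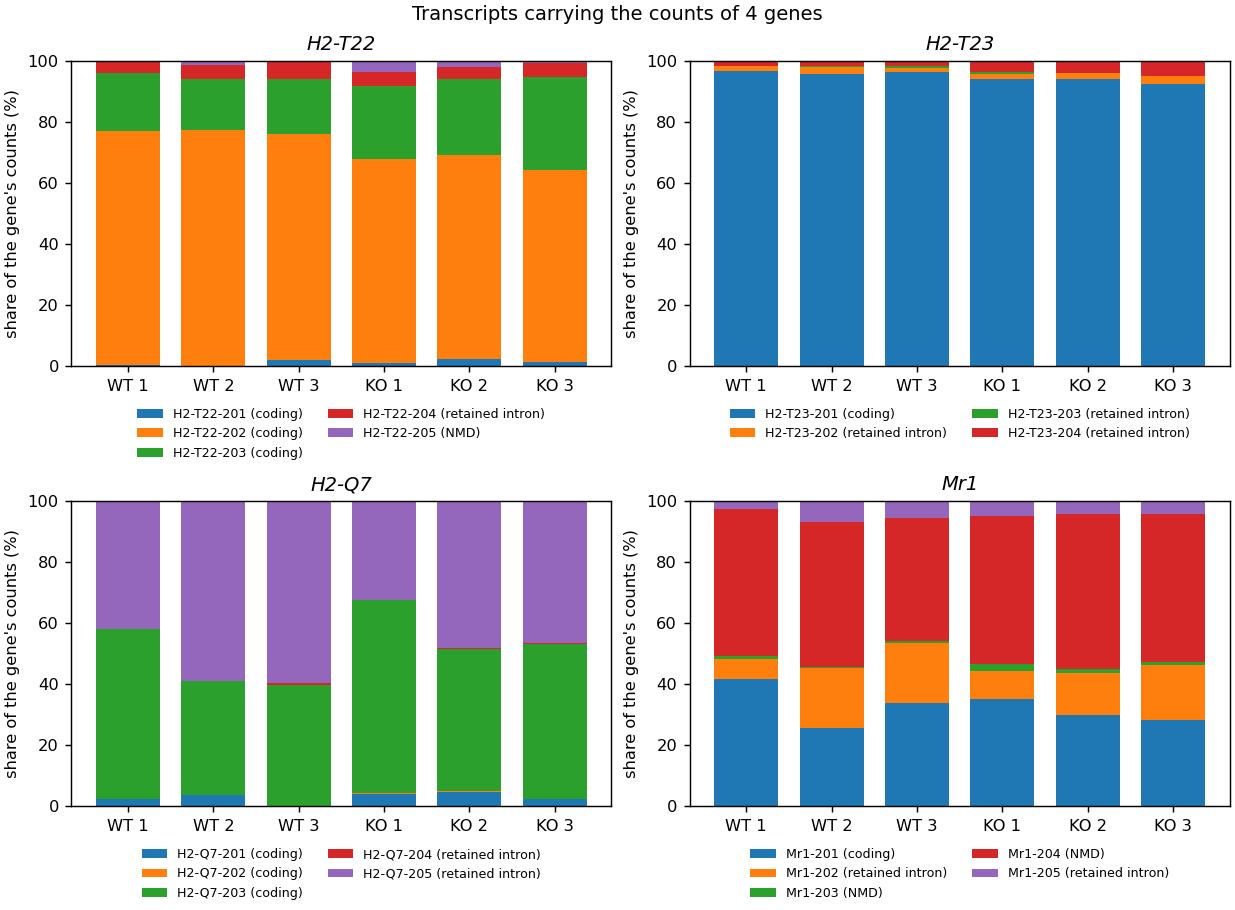
Share of the gene's estimated counts (y axis, percent) assigned to each annotated transcript of H2-T22, H2-T23, H2-Q7 and Mr1 in the 3 WT and 3 Drp1 KO (KO) libraries; NMD, nonsense-mediated decay. The H2-T22-203 band widens from 17.8% to 26.5% on average, and the noncoding bands of H2-Q7 and Mr1 fill a large part of each bar.

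Per transcript length, H2-T23 was the most abundant of the 9 genes in both groups. In WT its mean level was 110 TPM, a unit that allows for transcript length, followed by H2-Q4 at 44.0 and H2-T22 at 43.5 TPM, whose ranges overlapped. H2-T24 followed at 26.5 TPM, apart from H2-T22, and then H2-Q7 at 20.1, H2-M3 at 19.1, Mr1 at 15.2, H2-Q6 at 9.14 and Cd1d1 at 9.04 TPM, each overlapping in range with its neighbour. In Drp1 KO the order was H2-T23 at 145, H2-T22 at 85.8, H2-Q4 at 65.5, H2-Q7 at 58.7 and H2-T24 at 54.6 TPM. H2-T22 was then apart from H2-T23 and from H2-Q4, whereas H2-Q4, H2-Q7 and H2-T24 each overlapped with the next. H2-M3 at 25.2, H2-Q6 at 23.1 and Mr1 at 18.6 TPM came after a gap, and Cd1d1 was last at 7.30 TPM. The light chain transcript B2m, at 5709 ± 437 TPM in WT and 9342 ± 498 TPM in Drp1 KO (SD, n = 3), exceeded all of them.

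The classical genes did not pass the test. H2-K1 measured 765, 568 and 516 CPM in WT, against 849, 814 and 642 CPM in Drp1 KO, with a log2 fold change of 0.32 (SE 0.160, edgeR adjusted p = 0.367). The paired fit gave H2-K1 0.33 (adjusted p = 0.0263), and with length-scaled counts its log2 fold change was 0.66 (adjusted p = 0.0682). H2-D1 measured 3074, 2328 and 2235 CPM in the WT libraries and 3044, 2810 and 2277 CPM in Drp1 KO, with a log2 fold change of 0.09 (SE 0.152, edgeR adjusted p = 0.855; 0.528 in the paired fit). Both overlapped between groups in CPM, and for H2-D1 the sign of the log2 fold change turned without WT library 3 or without Drp1 KO library 1. In TPM, H2-K1 was 803, 554 and 590 in WT and 994, 1030 and 882 in Drp1 KO, without overlap. H2-D1 overlapped in TPM too, at 1779, 1336 and 1371 in WT and 1642, 1555 and 1312 in Drp1 KO. Within a library, H2-T22 amounted to 8.80, 7.75 and 8.85 CPM per 100 CPM of H2-K1 in WT and to 12.5, 14.3 and 16.5 in Drp1 KO. Per 100 TPM of H2-K1 it was 6.79, 6.53 and 6.78 TPM in WT and 8.02, 8.89 and 9.75 in Drp1 KO, so that the groups did not overlap on either scale. For H2-T24 and H2-T23 the result depended on the scale. H2-T24 was 4.80, 6.27 and 6.30 CPM per 100 CPM of H2-K1 in WT and 8.33, 10.07 and 11.9 in Drp1 KO, but on the TPM scale, at 3.41, 4.85 and 4.27 against 4.84, 5.73 and 6.42, the groups overlapped. H2-T23 was higher relative to H2-K1 in CPM, at 20.5, 19.4 and 19.5 in WT and 21.9, 21.9 and 24.6 in Drp1 KO. In TPM it was lower, at 17.2, 17.6 and 16.2 in WT and 15.3, 14.4 and 15.4 in Drp1 KO. The exact two-sided permutation p was 0.2 for H2-T24 in TPM and 0.1 for the other 5 of these 6 ratios, the smallest that 3 against 3 libraries can give. The TPM ratios were added after the CPM ratios had been seen.

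Genes that act with class I molecules were followed in lists of named genes. Of the 9 genes for the light chain and peptide loading, 2 rose and none fell. B2m rose by 0.82 on the log2 scale (SE 0.119, edgeR adjusted p = 0.00536), from 2159 ± 239 to 3799 ± 307 CPM. Tap1, a subunit of the peptide transporter, rose by 0.91 (SE 0.185, edgeR adjusted p = 0.0273), from 93.5 ± 29.8 to 175 ± 9.98 CPM (SD, n = 3). The paired fit called 4 higher, adding Tapbp (tapasin) at 0.50 and the aminopeptidase Erap1 at 0.37, and 2 lower, the chaperones Pdia3 at −0.31 and Canx at −0.27; these 4 names were chosen after their values were seen. B2m no longer passed without WT library 2 (adjusted p = 0.0681) or WT library 3 (0.0552), and Tap1 no longer passed without WT library 2 (0.174) or 3 (0.11) or Drp1 KO library 2 (0.116) or 3 (0.0653). None of 5 immunoproteasome genes passed, with log2 fold changes of 0.21 to 0.68, whereas 4 were higher in the paired fit (Psmb8, Psmb9, Psmb10 and Psme1).

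Of 14 transcription factors of class I genes, 5 rose and none fell, with a list median of −0.01. The paired fit called 5 higher and 1 lower, Irf2, at −0.35 (adjusted p = 0.0121). Stat2 rose by 1.33 (SE 0.152, edgeR adjusted p = 0.00124) and Irf9 by 0.98 (SE 0.115, edgeR adjusted p = 0.00149), which act together in the response to type I interferon. Nlrc5, the class I coactivator, measured 31.4, 27.8 and 24.8 CPM in the WT libraries and 45.4, 52.4 and 62.7 CPM in Drp1 KO. Nlrc5 thus rose without overlap, by 0.94 (SE 0.139, edgeR adjusted p = 0.00595), but not past the threshold without WT library 2 (adjusted p = 0.0552). Irf1 rose by 0.59 (SE 0.113, edgeR adjusted p = 0.0214) and lost the call when any 1 of WT libraries 2 and 3 and Drp1 KO libraries 2 and 3 was left out (adjusted p = 0.0679 to 0.142) or with length-scaled counts (0.0779). Of 10 interferon-stimulated reference genes, 9 rose, with a list median of 2.13, and all 10 were higher in the paired fit, where Bst2 was added at 0.59 (adjusted p = 0.00417). The 6 with the smallest p were Usp18, at 3.16, Ifi44, at 2.82, Mx1, at 1.78, Rsad2, at 2.06, Ifit3, at 2.20, and Ifit1, at 2.22.

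Other class Ib and class I-like genes gave few calls in the unpaired fit. Of 19 further class Ib genes of the H2 region with an annotation, 9 had enough counts to be tested and none passed in edgeR. By the study's rule 3 of these 9 were higher, against 7.19% of all genes. In 3 of 9 every Drp1 KO library lay above every WT library, against 11.7% of all genes. The paired fit called 3 of 9 higher, against 6.73% of all genes (H2-T10, H2-Q5 and H2-Q2, named after their values were seen). Summed over the 19 genes, the level was 10.9 to 19.7 CPM in WT, against 22.1 to 29.5 CPM in Drp1 KO, below that of most single genes described above. Of 10 class I-like genes outside the H2 region, 1 fell: Fcgrt, the neonatal Fc receptor, went from 90.4 ± 9.85 to 54.7 ± 5.61 CPM (SD, n = 3), a log2 fold change of −0.73 (SE 0.115, edgeR adjusted p = 0.00782). The paired fit called 1 of these 10 higher, Raet1e at 0.68 (adjusted p = 0.0293), and 2 lower, Fcgrt and Ulbp1, the latter at −0.25 (adjusted p = 0.0457). Of 11 genes for lipid loading of CD1D, none passed, and 4 were higher in the paired fit. Names called in the paired fit alone, in these and the other lists, were chosen after their values were seen. Median log2 fold changes were 0.51 for the further class Ib genes, −0.13 for the class I-like genes, 0.01 for lipid loading and 0.41 for the immunoproteasome, against 0.0046 over all genes.

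**Figure D5:**
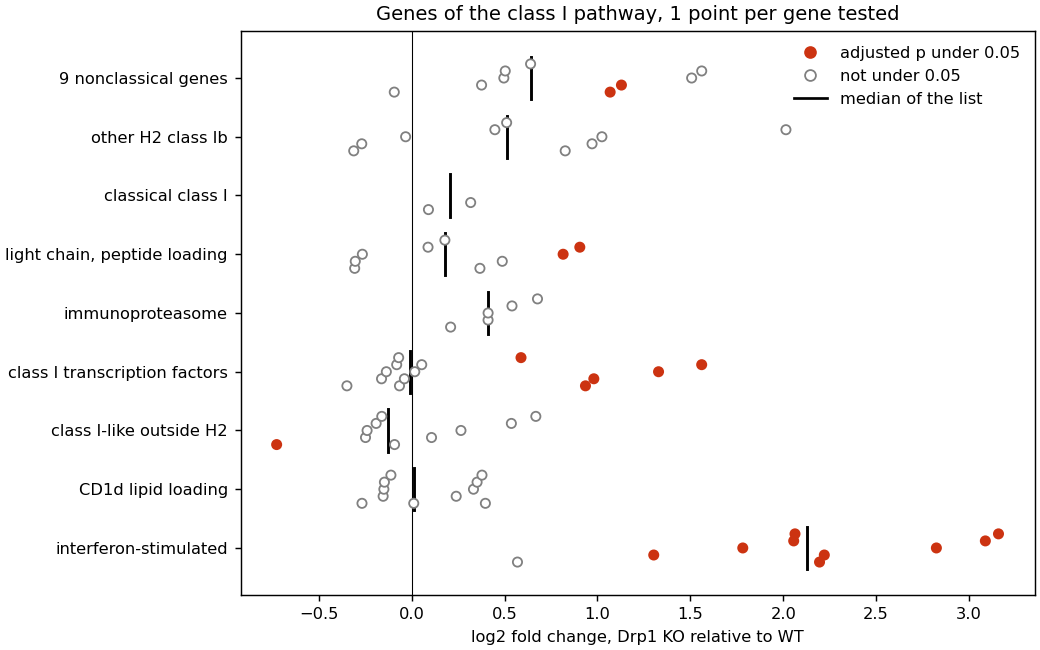
Log2 fold change (x axis, Drp1 KO relative to WT) of each gene tested in 9 lists of the class I pathway, with red points past an adjusted p of 0.05 in the unpaired fit and a black bar at the list's median. The medians run from −0.13 in the class I-like genes to 2.13 in the interferon-stimulated genes, with 0.64 in the 9 nonclassical genes.

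The genes whose levels most resembled those of H2-T24 over the 6 libraries, out of 12248 genes averaging 1 CPM or more, were Ifi213, Dcaf13, Gm10123, Slfn1 and Gm6377. Pearson's r of log2 CPM was 0.997 to 0.998 for these 5. The 6 points fall into the 2 genotypes and share their depth and scaling, so r is a description with no test. Their own log2 fold changes ran from 0.25 for Dcaf13 to 4.13 for Slfn1, so that a like pattern came with unlike sizes.

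Dnm1l, the targeted gene, measured 72.7, 69.9 and 75.1 CPM in the WT libraries and 58.7, 60.7 and 66.3 CPM in Drp1 KO. All Drp1 KO libraries were below all WT libraries, by a log2 fold change of −0.23 (SE 0.0921, edgeR adjusted p = 0.248; 0.0738 in the paired fit). Counts over the whole gene include exons outside a floxed stretch, so they check the deletion only weakly. Of 8 macrophage markers, summed to 13521 to 14919 CPM in WT, against 12057 to 14465 CPM in Drp1 KO, Fcgr1 rose by 1.34 (edgeR adjusted p = 0.000322). Mertk and Csf1r fell, by 0.52 on the log2 scale each (adjusted p = 0.0236 and 0.034), and both calls were lost without WT library 2 or 3 or Drp1 KO library 2 or 3 (adjusted p of 0.0621 to 0.118 for Mertk and 0.0788 to 0.133 for Csf1r). The Csf1r call was also lost without WT library 1 (0.0635) and with length-scaled counts (0.209). None of the T and NK, B, dendritic, neutrophil or fibroblast markers passed in the unpaired fit. Of 9 neutrophil markers, 6 were tested, all with higher estimates, and they summed to 6.86 to 21.1 CPM in the WT libraries and 20.6 to 48.4 CPM in Drp1 KO, with Ly6g at 0 in every library and 4 genes higher in the paired fit. T and NK markers summed to 312 to 329 CPM in WT, against 129 to 253 CPM in Drp1 KO, nearly all of it Cd4, with Ncr1 at 0. Cd4 had a log2 fold change of −0.90 (edgeR adjusted p = 0.0595) and was lower in the paired fit, at −0.97 (adjusted p = 0.00228). B cell markers summed to 3.54 to 5.65 and 5.72 to 6.84 CPM, dendritic markers to 3.75 to 5.86 and 2.45 to 4.49 CPM with Cd209a at 0, and fibroblast markers to 1.84 to 3.06 and 1.89 to 2.00 CPM. The part of these cells in the differences of the 9 genes was not tested.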

How the data were processed

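Estimated counts and TPM per transcript were deposited by the authors for 6 libraries (3 per genotype). They were made with kallisto 0.46.1 against mouse GRCm39 cDNA; DESeq2 1.44.0 is also named in the submitters' processing notes. Of 116873 transcripts, 116159 (99.4%) were matched to a gene symbol of the GENCODE GRCm39 annotation, and 0.542 to 0.575% of the counts were left out. The deposited estimated counts were summed per gene, rounded and tested with edgeR 4.0.16 (R 4.3.3) for genes with at least 10 counts in total, with TMM scaling and no covariate. The deposited TPM were used for levels between genes. The test was checked on simulated data.

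Alternatives were other scalings and filters, DESeq2 1.42.0, limma-voom (limma 3.58.1), length-scaled counts, coding transcripts alone, a replicate block and leaving out each library. The labels give replicate numbers without saying what a number shares. Deviations from the group means correlated between same-numbered libraries over 12248 genes, at 0.510, 0.204 and 0.298, all above 0.1. The unpaired fit is the main one, and the paired fit is given beside each result whose call it changed. Drp1 KO library 3 correlated slightly better with WT library 2 (0.326), and WT library 2 correlated better with it than with Drp1 KO library 2 (0.204). Replicates are labelled biological, but whether each came from its own pool of mice is not given in the sources used here, so p-values measure the spread between these libraries. No 2 libraries of a group agreed within sampling noise (chi-square per degree of freedom of at least 9.50).

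All 9 genes and the genes of each list past an adjusted p of 0.05 (at most 6 per list, by p) were named, with B2m, H2-K1, H2-D1, Tap1 and Nlrc5 in any case. The members and lists were chosen with earlier results of these data known. Promoter windows are RefSeq's on GRCm38.p6, whereas gene positions are on GRCm39. Some genes that the naming rule selected are not reported here. Protein sequences were not analysed here. Intervals and floors for counts cover counting error only.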

Additional observations from a re-analysis of the deposited data

How the results depend on the processing

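H2-T22 and H2-T24 passed an adjusted p of 0.05 under all 15 other settings, and the sum of H2-T22, H2-T10 and H2-T9 did too. The count of the 9 genes past that threshold was 2, against 2.29% of all genes higher. It became 4 with library size alone as the scaling (2.39%) and 6 with no filter beyond 1 count (2.68%). With limma-voom it was 4 (2.22%) and with the replicate block 8 (6.73%). It was 2 to 7 when single libraries were left out, against 0.768 to 2.89% of all genes higher. By fold and unadjusted p, 8 genes became 4 to 8 when single libraries were left out, against 5.63 to 8.65%. The sum of H2-Q6 and H2-Q7, with an adjusted p of 0.0544, passed at 1.52 (library size alone), 1.51 (no filter), 1.64 (limma-voom) and 1.62 (replicate block), and its log2 fold change was 1.19 to 2.07 without single libraries. Over all genes, 621 calls became 1065 with no filter, 1155 with DESeq2 and 2212 with the replicate block, and 181 to 904 without single libraries. Over the 7 lists of class I partner genes, 8 calls became 13 with no filter, 15 with DESeq2 and 27 with the replicate block, and 4 to 17 without single libraries. The log2 fold change of Cd1d1 turned to 0.045 with coding transcripts alone, and that of H2-D1 was −0.014 to 0.25 without single libraries, below 0 without WT library 3 or Drp1 KO library 1. The causes were not tested. Among the genes named here, the replicate block changed no other call than those given here and beside the results.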
